A study of Oryza sativa with 6 samples.

Results

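Roots of rice seedlings were compared after 3 d of water deficiency (WD) and without it. The plants were Oryza sativa subspecies japonica, cultivar Chilbo, 4 weeks old and grown in soil in pots. The control pots were watered throughout, and WD was imposed by withholding irrigation for 2 d (WD2d) or 3 d (WD3d). RNA of whole roots was sequenced from 2 libraries per group, so the comparison of WD3d with control rests on 4 of the 6 libraries of the series. The labels do not say on which day the control roots were taken, nor how many plants entered a library. The deposited table gives 1 FPKM value (fragment counts scaled for transcript length and sequencing depth) per group, in which the authors pooled both libraries. No spread between libraries and no read depth can therefore be given for any value below, the authors' own test results were not used, and differences are described only by their size. In whole roots, fewer cells of a type and less RNA per cell cannot be told apart. The root label was not checked against marker genes here.

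The comparison holds 63985 entries, each a locus on the IRGSP 1.0 genome, all of which are also listed for the 2 d comparison. An entry may be listed at 0 FPKM in every group. Gene names were used only in the first stretch of 7 chromosomes, because names further along may be misplaced. Names inside these stretches were taken as the table gives them and were not checked further. The last entries used start at 10098281 on chromosome 1, 5995201 on chromosome 2, 4894521 on chromosome 3, 7396219 on chromosome 5, 11098426 on chromosome 6, 11399710 on chromosome 8 and 5098873 on chromosome 12. These stretches hold 8457 entries that name a locus, and 8057 of them name exactly 1.

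Drying soil lowers the water potential around the root, and plants answer through abscisic acid and other signals by closing stomata, adjusting solutes and slowing growth. Protective proteins, such as metal-binding metallothioneins, protease inhibitors and enzymes that remove reactive aldehydes, are known from many studies of water stress. Growth of a root depends on loosening and rebuilding the cell wall, on auxin and on the breakdown of sucrose delivered by the shoot.

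An entry was called higher or lower after 3 d of WD when its FPKM was over 4 in both groups and its log2 ratio of WD3d to control was over 1 or under -1, with no pseudocount. Where 3 levels of a gene are given together, they stand in the order control, WD2d and WD3d. Across the genome 11089 entries were over the FPKM limit, and 1799 of them (16.2%) were higher and 1466 (13.2%) lower. In the stretches used for names, 1942 entries were over the limit, of which 314 (16.2%) were higher and 266 (13.7%) were lower. The median log2 ratio was 0.17 over all entries tested and 0.15 in these stretches, so a typical entry was listed slightly higher after 3 d than in control. FPKM is a relative scale, and 2 short entries without a name held 76.6% of the summed FPKM in control and 69.0% after 3 d. When the ratios were centred on the median of all entries, the stretches held 242 higher and 313 lower entries, and the higher share of the calls was 43.6% rather than 54.1%. The FPKM limit also set this balance. With FPKM over 4 required in only 1 group, 481 entries were higher and 660 lower (18.3% and 25.1% of 2626).

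**Figure D1:**
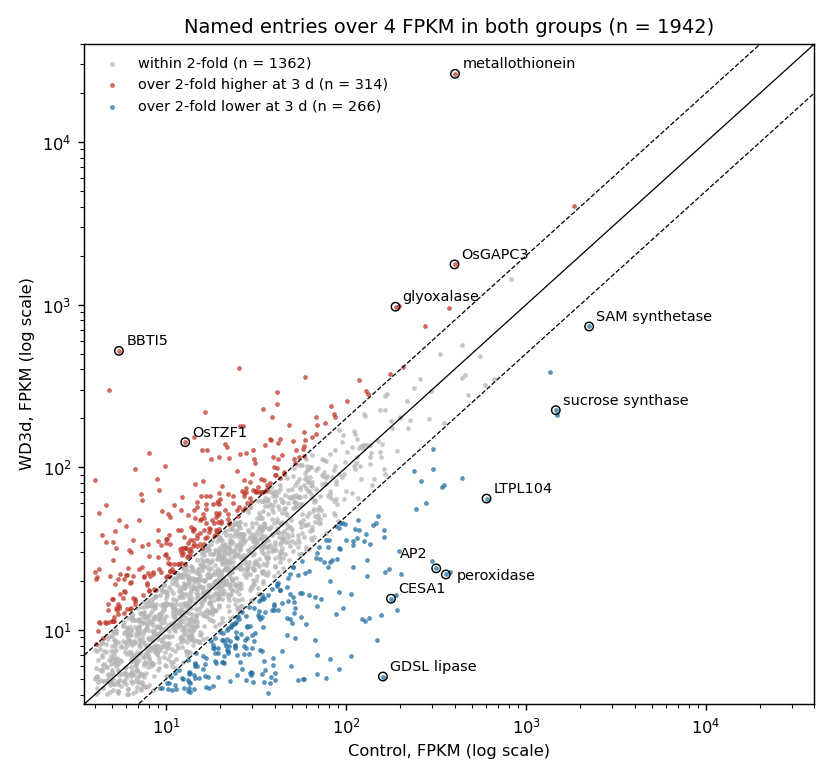
FPKM after 3 d of WD (WD3d, vertical) against control FPKM (horizontal), both on log scales, for the 1942 named entries over 4 FPKM in both groups, 1 point per entry. The solid line marks equal levels and the dashed lines a 2-fold difference, and 314 entries lie above and 266 below the dashed lines. Ringed points are genes described in the text.

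The share of calls was smaller among entries of low abundance, which the FPKM limit partly fixes, since an entry just over the limit in 1 group cannot be much lower in the other and still be counted. Among 432 entries with a geometric mean of 4 to 10 FPKM over both groups, 7.64% were higher and 9.03% lower after 3 d. Among 100 entries with a mean over 100 FPKM, 24.0% were higher and 14.0% lower. Large differences were rarer than the calls as a whole, since 68 entries had a log2 ratio over 2 and 81 had one under -2. The gene lists below came mostly from loci that the study had called changed, so their counts give no direction for a class. For all named entries over the limit, 16.2% were higher and 13.7% lower.

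All 3 protease inhibitors of the list were higher after 3 d, against 16.2% of all named entries over the limit. As the lists came mostly from loci the study had called changed, no direction of the class is read from this. BBTI5 and a metallothionein had the highest ratios among annotated single-locus entries past the limits in the stretches used for names. BBTI5 (LOC_Os01g03360), a Bowman-Birk trypsin inhibitor that blocks serine proteases, was at 5.45 FPKM in the watered control, 301 in WD2d and 519 in WD3d, a 95.2-fold higher level after 3 d. BBTI4 (LOC_Os01g03340), a second gene of the family, was at 25.2, 549.8 and 405 FPKM in the same order, 16.1-fold higher after 3 d. Both inhibitors were higher at both times, but only BBTI5 was higher after 3 d than after 2 d. Both are listed for the same interval of chromosome 1, from 1346589 to 1365423, which 5 entries share, so reads of neighbouring family members may have been divided between them. A cysteine proteinase inhibitor (LOC_Os01g16430), which acts on papain-type proteases, was at 42.7, 133 and 149 FPKM, 3.498-fold higher after 3 d.

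Of 9 genes for metal binding and transport, 4 were higher, 3 lower and 1 within 2-fold, and 1 was under the FPKM limit. The shares among all named entries over the limit were 16.2% higher and 13.7% lower. Most listed loci had been called changed by the study, so these counts give no direction. The metallothionein LOC_Os01g05650, a small cysteine-rich protein that binds metal ions, was at 402 FPKM in the watered control, 11238 in WD2d and 26219.6 in WD3d. It was 65.2-fold higher after 3 d and the most abundant named entry there. Its listed interval on chromosome 1, from 2664481 to 2695085, is shared by 10 entries, among them LOC_Os01g05640 at 3.61, 173 and 362 FPKM. Ferritin (LOC_Os12g01530), which stores iron, was at 5.45, 24.6 and 47.4 FPKM, 8.70-fold higher after 3 d. OsZIP4 (LOC_Os08g10630), a zinc uptake transporter, stood at 8.91, 76.1 and 84.8 FPKM, and OsMTP1 (LOC_Os05g03780), which moves zinc out of the cytosol, at 37.9, 161 and 149 FPKM.

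The metal genes that were lower had different products. A protein with a heavy-metal-associated domain (LOC_Os03g05750) was at 77.1 FPKM in the watered control, 15.8 in WD2d and 5.04 in WD3d, 15.3-fold lower. A copper-transporting ATPase (LOC_Os02g10290) was at 95.1, 34.9 and 45.7 FPKM, just past the limit with a log2 ratio of -1.06. The metal transporter Nramp6 (LOC_Os02g03900) had 177 FPKM in control but 4.94 FPKM after 2 d and 1.15 FPKM after 3 d, so it dropped out of the counts through its low level under WD. It is named here after its values were seen, as are the other genes at or below 4 FPKM under WD.

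In sugar and central carbon metabolism, 10 of the 15 genes over the limit were higher and 5 lower, with a median log2 ratio of 1.29. Over all entries tested the median is 0.17, but the list was built from loci the study had called changed, so nothing is read from that difference. Sucrose synthase (LOC_Os06g09450), which splits sucrose into UDP-glucose and fructose, was among the most abundant control transcripts and went the other way. It was at 1461 FPKM in the watered control, 335 in WD2d and 224 in WD3d, 6.51-fold lower. A kinase of the pfkB family (LOC_Os08g02120), whose members include fructokinases, was at 148, 13.8 and 8.66 FPKM, 17.1-fold lower. Both hexokinases, which phosphorylate glucose at the entry of glycolysis, were higher, LOC_Os05g09500 at 10.4, 28.2 and 38.3 FPKM and LOC_Os01g09460 at 5.49, 9.05 and 14.0 FPKM.

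Enzymes of the following steps differed in direction. A phosphofructokinase (LOC_Os01g09570), the committed step of glycolysis, was at 61.8, 30.4 and 23.2 FPKM, a log2 ratio of -1.42 after 3 d. OsGAPC3 (LOC_Os08g03290), a cytosolic glyceraldehyde phosphate dehydrogenase, was at 399.7, 1949 and 1767 FPKM, 4.42-fold higher. Enolase (LOC_Os06g04510), which makes phosphoenolpyruvate, was at 15.8, 243 and 128 FPKM, 8.12-fold higher than control after 3 d but lower than after 2 d. Citrate synthase (LOC_Os02g10070) and aconitate hydratase (LOC_Os08g09200), which open the tricarboxylic acid cycle, had log2 ratios of 1.29 and 1.08. The latter is under 1 (0.92) when ratios are centred. Transketolase (LOC_Os06g04270), of the pentose phosphate pathway, was at 136, 67.4 and 33.5 FPKM, 4.07-fold lower. Adenylate kinase (LOC_Os06g10200), which balances the adenine nucleotides, was at 6.001, 31.4 and 43.2 FPKM, 7.21-fold higher.

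For amino acid metabolism, 11 of 17 genes over the limit were higher and 5 lower, with a median log2 ratio of 1.12. The shares among all named entries over the limit were 16.2% and 13.7%. Nothing is read from the difference, as the list came mostly from loci the study had called changed. Both listed enzymes of the last steps of tyrosine breakdown were higher at both times. Homogentisate dioxygenase (LOC_Os06g01360) was at 16.1 FPKM in the watered control, 53.9 in WD2d and 82.6 in WD3d, and fumarylacetoacetase (LOC_Os02g10310) at 38.5, 175 and 203 FPKM, 5.14-fold and 5.28-fold higher after 3 d. A tryptophan synthase beta chain (LOC_Os08g04180), which joins indole to serine, was at 41.3, 262 and 245 FPKM. An acyl-CoA dehydrogenase of the mitochondrion (LOC_Os05g03480) was at 30.6, 81.3 and 112 FPKM.

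The lower genes of this list included the most abundant named control transcript. S-adenosylmethionine synthetase (LOC_Os05g04510), which makes the methyl donor of the cell, was at 2238 FPKM in the watered control, 1653 in WD2d and 734 in WD3d, 3.05-fold lower. A second entry for the same locus, at 29.4, 36.9 and 10.6 FPKM, was also lower after 3 d. The glycine cleavage system H protein (LOC_Os02g07410), a carrier in glycine breakdown, was at 133, 25.7 and 11.9 FPKM, 11.2-fold lower, whereas an entry holding an aminomethyltransferase (LOC_Os06g04380), the enzyme type of another glycine cleavage component, and a further locus was at 16.4, 173 and 219 FPKM, 13.3-fold higher and the highest ratio of the list. A pyridoxal-dependent decarboxylase (LOC_Os06g04070) was at 107, 33.2 and 16.6 FPKM, and methionine S-methyltransferase (LOC_Os05g01470) was at 51.4, 6.30 and 2.85 FPKM, the last under the limit.

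Of 9 listed genes for redox balance and aldehyde removal, 7 were higher, 0 were lower and 2 were within 2-fold. Their median log2 ratio was 1.75. Among all named entries over the limit, 16.2% were higher, but the list came mostly from loci the study had called changed. Glyoxalases detoxify methylglyoxal, a by-product of glycolysis, and both in the list were higher. OsGLY1-11.2 (LOC_Os08g09250) was at 188 FPKM in the watered control, 859 in WD2d and 971 in WD3d, and LOC_Os05g07940 at 25.6, 151 and 179.8 FPKM, 5.17-fold and 7.03-fold higher after 3 d. An aldehyde dehydrogenase (LOC_Os02g07760), which oxidizes aldehydes to acids, was at 41.3, 346 and 291 FPKM, 7.06-fold higher. A thiamine pyrophosphate enzyme (LOC_Os01g06660) was at 9.83, 90.7 and 102 FPKM, 10.4-fold higher. The thioredoxins LOC_Os05g07690 and LOC_Os01g07376, small proteins that reduce disulfides, had log2 ratios of 1.75 and 1.29. The remaining higher member, a hydroxyacid oxidase (LOC_Os08g09860), had a log2 ratio of 1.04, or 0.87 with centred ratios. Neither its annotation nor that of the thiamine pyrophosphate enzyme names aldehyde removal.

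Catalases and ascorbate peroxidases remove hydrogen peroxide. Those of the study's primer list that lie in the stretches used, 4 loci in 3 entries, were not taken for how they moved in the RNA-Seq, and these 3 entries were within 2-fold of control after 3 d. Members elsewhere were not analysed here. OsCAT1 (LOC_Os02g02400) was at 153 FPKM in the watered control, 329 in WD2d and 224 in WD3d, a log2 ratio of 0.55 after 3 d. OsCAT2 (LOC_Os03g03910), in an entry that lists a further locus, was at 22.4, 24.9 and 31.5 FPKM. OsAPX5 and OsAPX6 (LOC_Os12g07830 and LOC_Os12g07820) share 1 entry at 8.84, 12.1 and 10.5 FPKM and cannot be separated.

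The class III peroxidases, secreted enzymes that use hydrogen peroxide to cross-link or loosen the wall, numbered 5 in the list, of which 2 were over the limit in both groups and lower after 3 d. LOC_Os01g15830 was at 358 FPKM in the watered control, 56.5 in WD2d and 21.9 in WD3d, 16.3-fold lower. LOC_Os03g02920 was at 35.3, 21.3 and 5.69 FPKM, 6.20-fold lower. Since the lists came mostly from loci the study had called changed, no direction of the family is read from these 2. The share lower among all named entries over the limit was 13.7%. The remaining 3 ended under the FPKM limit, LOC_Os05g06970 at 159, 4.53 and 1.59 FPKM, LOC_Os05g04380 at 83.2, 8.34 and 1.79 FPKM, and LOC_Os05g04500 at 45.2, 8.04 and 0.548 FPKM. These 3 pass an FPKM limit only through control, where they are high, so their direction is fixed by how they were admitted and they were not counted.

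Of the 9 listed cell wall genes over the limit, 6 were lower and 3 higher, with a median log2 ratio of -1.60. Among all named entries over the limit, 13.7% were lower and 16.2% higher. The list came mostly from loci the study had called changed, so no direction of cell wall genes is read from it. CESA1 (LOC_Os05g08370), a catalytic subunit of cellulose synthase, was at 177 FPKM in the watered control, 72.1 in WD2d and 15.6 in WD3d, 11.39-fold lower. A glycosyl hydrolase of family 16 (LOC_Os08g13920), a family that cuts and rejoins wall glucans, was at 106, 31.1 and 6.93 FPKM, 15.3-fold lower. An arabinofuranosidase (LOC_Os12g03470), which trims arabinose side chains, was at 131, 38.8 and 21.6 FPKM. Its listed interval is shared by 11 entries. Another lower gene, a glycine-rich cell wall structural protein (LOC_Os05g02770), was counted by its own entry at 67.1, 23.9 and 15.9 FPKM. A more abundant entry holding this and a further locus was at 456, 397 and 369 FPKM, a log2 ratio of -0.31, within 2-fold.

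A further 3 wall genes ended under the FPKM limit. CSLF6 (LOC_Os08g06380), which makes the mixed-linkage glucan typical of grasses, was at 57.5, 8.90 and 1.75 FPKM, and a fasciclin-like arabinogalactan protein (LOC_Os03g03600) at 56.3, 10.5 and 0.515 FPKM. A beta-galactosidase (LOC_Os03g06940) was at 26.5, 6.24 and 2.19 FPKM. The higher genes were a glucan synthase of the callose type (LOC_Os03g03610) at 82.1, 149 and 238 FPKM, an expansin (LOC_Os03g04020), which loosens walls, at 7.87, 17.2 and 22.4 FPKM, and a glycine-rich cell wall protein (LOC_Os03g07270) at 6.37, 17.5 and 30.3 FPKM. In both directions, each of the 9 wall genes over the limit lay further from control after 3 d than after 2 d.

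**Figure D2:**
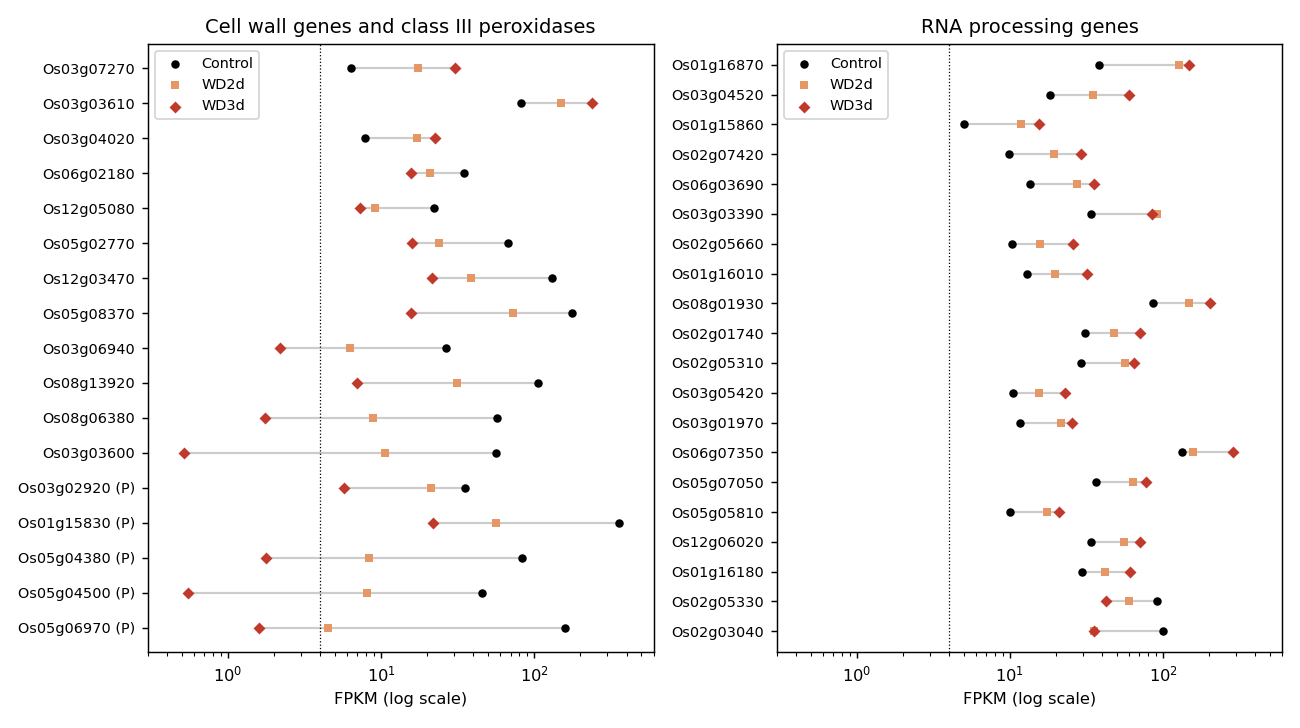
FPKM (log scale) in control, WD2d and WD3d of every member of 3 gene lists, 1 pooled value per group, with (P) marking the class III peroxidases and the dotted line the limit of 4 FPKM. In the left panel, points left of the dotted line after 3 d belong to 3 wall genes and 3 peroxidases that were over the limit in control and WD2d but not in WD3d, and of the 9 wall genes over it in control and WD3d, 6 are lower and 3 higher after 3 d. In the right panel 18 of 20 RNA processing genes are more than 2-fold higher after 3 d than in control.

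Of 4 genes of phenylpropanoid metabolism and methyl transfer, which supply lignin and related phenolics, 3 were lower and 1 was within 2-fold. Their median log2 ratio was -1.88. The share lower among all named entries over the limit was 13.7%. As this list came mostly from loci the study had called changed, no direction of the pathway is read from it. An O-methyltransferase (LOC_Os08g06100) was at 351 FPKM in the watered control, 249.7 in WD2d and 78.1 in WD3d. A protein with an AMP-binding domain (LOC_Os02g08100) was at 277, 240.5 and 60.5 FPKM. Caffeoyl-CoA O-methyltransferase (LOC_Os06g06980), which methylates lignin precursors, was at 19.0, 17.5 and 6.31 FPKM. These 3 genes were much nearer to control after 2 d than after 3 d. Cinnamoyl-CoA reductase (LOC_Os02g08420) was at 54.2, 21.7 and 36.3 FPKM, a log2 ratio of -0.58.

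In lipid metabolism and transfer, 8 of 20 genes over the limit were higher and 12 lower, with a median log2 ratio of -1.67. The shares among all named entries over the limit were 16.2% and 13.7%. No direction is read from these counts, as the list came mostly from loci the study had called changed. The 4 GDSL lipases over the limit, hydrolases that act on wall and surface lipids among other substrates, were lower. LOC_Os06g06290 was at 159.9 FPKM in the watered control, 23.7 in WD2d and 5.17 in WD3d, 30.9-fold lower. This was the lowest ratio among annotated single-locus entries past the limits in the stretches used for names. LOC_Os05g11950, LOC_Os05g11910 and LOC_Os05g06710 had log2 ratios of -2.89, -2.43 and -2.14, and LOC_Os05g06720, not counted, ended at 2.29 FPKM, under the limit.

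Lipid carriers and phospholipases varied among themselves. The lipid transfer protein LTPL104 (LOC_Os05g06780) was at 602, 125 and 64.2 FPKM, 9.38-fold lower. Of the acyl-CoA binding proteins, LOC_Os08g06550 was at 189, 36.6 and 16.3 FPKM and LOC_Os06g02490 at 14.4, 48.7 and 48.9 FPKM, so that their order was exchanged after 3 d. A phospholipase C (LOC_Os05g03610), which releases lipid messengers from membranes, was at 173, 30.1 and 23.8 FPKM, 7.29-fold lower, whereas OsPLDα1 (LOC_Os01g07760), which makes phosphatidic acid, was at 117, 258 and 343 FPKM, 2.93-fold higher. RINO1 (LOC_Os03g09250), the first enzyme of inositol synthesis, was at 39.6, 166 and 101 FPKM.

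The listed transporters of water, ions and small solutes were lower in 10 of 14 cases, higher in 2 and within 2-fold in 2. Their median log2 ratio was -1.23. Among all named entries over the limit, 13.7% were lower. This list too came mostly from loci the study had called changed, so nothing is read from the difference. An aquaporin (LOC_Os03g05290), a membrane channel for water, was at 306 FPKM in the watered control, 196 in WD2d and 129 in WD3d, 2.37-fold lower. An inorganic phosphate transporter (LOC_Os03g05620) was at 40.4, 13.8 and 4.94 FPKM, 8.17-fold lower. The potassium channel SKOR (LOC_Os06g14030), whose Arabidopsis namesake loads potassium into the xylem, was at 35.6, 11.2 and 13.0 FPKM, and the potassium transporter LOC_Os08g10550 at 16.1, 6.65 and 6.92 FPKM.

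Nitrogen carriers varied. A peptide transporter (LOC_Os08g05910) was at 34.7, 5.85 and 4.77 FPKM, and the amino acid transporters LOC_Os12g08130 and LOC_Os12g08090 ended at 0.501 FPKM and 0.256 FPKM after 3 d, from 35.4 and 22.5 FPKM in control. A further amino acid transporter (LOC_Os08g03350) was at 116, 44.1 and 47.1 FPKM. An entry with an ammonium transporter (LOC_Os12g01420) and a further locus was above control, at 4.39, 10.5 and 8.26 FPKM, a log2 ratio of 0.91 after 3 d. The higher genes were a sulfate transporter (LOC_Os03g06520), at 9.13, 139 and 72.3 FPKM, and a proton-pumping pyrophosphatase (LOC_Os02g09150), which energizes the vacuole, at 12.1, 49.2 and 30.3 FPKM. Both were higher after 2 d than after 3 d.

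Among 30 transcription factors, all over the limit, 15 were higher, 10 lower and 5 within 2-fold. The shares among all named entries over the limit were 16.2% higher and 13.7% lower. The list came mostly from loci the study had called changed, so no direction of a family is read from it. The 3 listed CCCH zinc finger proteins, a family of which several members bind RNA, were higher. OsTZF1 (LOC_Os05g10670), which the study lists as a gene of drought and salt tolerance, was at 12.7 FPKM in the watered control, 124 in WD2d and 143 in WD3d, 11.2-fold higher. OsDOS (LOC_Os01g09620), a regulator of leaf senescence, was at 17.7, 85.7 and 113 FPKM, and LOC_Os02g06584 at 31.5, 42.7 and 70.5 FPKM. A Myb-like factor (LOC_Os02g04640) was at 8.05, 99.9 and 122 FPKM, 15.1-fold higher, and a BEL1-like homeodomain factor (LOC_Os12g06340) at 7.24, 25.8 and 68.3 FPKM, 9.43-fold higher.

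The AP2 domain factors of the list, a family that includes ethylene and dehydration response factors, were lower. LOC_Os03g08470 was at 316 FPKM in the watered control, 25.7 in WD2d and 23.9 in WD3d, LOC_Os05g03040 at 197, 52.2 and 30.5 FPKM, and LOC_Os06g11860 at 27.7, 6.72 and 4.92 FPKM. Both WRKY factors of the list, a family best known from defence, were also lower. WRKY71 (LOC_Os02g08440) was at 54.2, 6.99 and 4.96 FPKM and WRKY1 (LOC_Os01g14440) at 14.4, 9.95 and 6.19 FPKM. These 5 genes had their lowest level after 3 d. They come from a list built mostly from loci the study had called changed, in parts of 7 chromosomes. No direction of either family is read from them, and 13.7% of all named entries over the limit were lower. In its own analysis, the paper counts AP2/EREBP and WRKY genes among those up-regulated after 3 d.

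Of 18 listed genes over the limit for hormone metabolism and signalling, 14 were lower, 3 higher and 1 within 2-fold. Their median log2 ratio was -1.32. Among all named entries over the limit, 13.7% were lower, but the list came mostly from loci the study had called changed. For auxin, the main hormone of root growth, the factor that binds auxin response elements (auxin response factor 1, LOC_Os01g13520) was at 122 FPKM in the watered control, 23.5 in WD2d and 11.7 in WD3d, 10.4-fold lower. The repressor OsIAA3 (LOC_Os01g13030) was 4.48-fold lower. Listed lower by less were the auxin receptor AUXIN SIGNALING F-BOX 2 (LOC_Os03g08850), an auxin efflux carrier (LOC_Os08g09190) and OsGH3.3 (LOC_Os01g12160), which conjugates auxin, with log2 ratios of -1.28, -1.31 and -1.10. The repressor OsIAA20 (LOC_Os06g07040) was at 29.0, 77.1 and 56.1 FPKM, a log2 ratio of 0.95.

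Other hormone pathways gave both directions. Two-component response regulators carry the cytokinin signal, and LOC_Os02g08500 was at 83.1, 32.0 and 27.0 FPKM. An ethylene receptor (LOC_Os05g06320) was at 26.0, 9.72 and 9.38 FPKM. A gene described as BRASSINOSTEROID INSENSITIVE 1 precursor (LOC_Os08g17410) was at 16.5, 5.51 and 2.04 FPKM, under the limit after 3 d. Whether it encodes the brassinosteroid receptor was not checked. The phytosulfokine precursor (LOC_Os12g05260) and receptor (LOC_Os02g02490), a peptide hormone pair of cell growth, had log2 ratios of -1.51 and -2.21. Ent-kaurenoic acid oxidase (LOC_Os06g02019), of gibberellin synthesis, was at 4.23, 11.8 and 23.8 FPKM, 5.63-fold higher, and gibberellin 2-beta-dioxygenase (LOC_Os05g11810), which inactivates gibberellins, was at 49.0, 35.8 and 22.2 FPKM. D3 (LOC_Os06g06050), the F-box protein of strigolactone signalling, was at 13.7, 31.6 and 42.7 FPKM. Of 3 protein phosphatases 2C, a family whose clade A members repress abscisic acid signalling, LOC_Os02g08364 and LOC_Os03g04430 were 5.30-fold and 3.94-fold lower. LOC_Os05g04360 had a log2 ratio of 1.02, or 0.85 with centred ratios. The clade of these phosphatases was not checked.

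Of the calcium-regulated and Wnk kinases listed, 3 were higher and 4 lower. The list came mostly from loci the study had called changed, so no split by class is read from it. The 3 SNF1-like kinases were higher, led by LOC_Os03g03510 at 27.6 FPKM in the watered control, 90.2 in WD2d and 123 in WD3d, a log2 ratio of 2.15. LOC_Os12g02200 and LOC_Os12g03810 had ratios of 1.598 and 1.27. The CAMK-like kinase LOC_Os03g03660 was at 115, 39.3 and 36.5 FPKM, and the Wnk kinases LOC_Os12g06490 and LOC_Os05g01780 at 339, 53.6 and 76.1 FPKM and at 25.01, 9.86 and 12.2 FPKM.

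Of 20 listed genes for RNA processing, 18 were higher and 2 lower, with a median log2 ratio of 1.17 and no ratio above 1.95. Among all named entries over the limit, 16.2% were higher, but the list came mostly from loci the study had called changed. An argonaute protein (LOC_Os01g16870), which holds small RNAs, was at 38.01 FPKM in the watered control, 126 in WD2d and 147 in WD3d, 3.87-fold higher. Splicing proteins were higher by different amounts. The helicase of the U5 particle (LOC_Os02g01740) was at 31.1, 48.1 and 71.0 FPKM, and splicing factor 8 (LOC_Os05g07050), at the catalytic centre of the spliceosome, at 36.4, 63.8 and 77.5 FPKM. A splicing factor rich in arginine and serine (LOC_Os02g07420) was at 9.82, 19.5 and 29.1 FPKM, 2.96-fold higher after 3 d. BCAS2 (LOC_Os01g16010), of a spliceosome-associated complex, was 2.46-fold higher, and an entry holding pre-mRNA-processing factor 6 (LOC_Os01g15860) and a further locus was 3.10-fold higher. Because most ratios lay just over 1, 10 of the 20 rather than 18 were higher once ratios were centred on the median of all entries. The exceptions were an RNA recognition motif protein (LOC_Os02g03040) at 99.2, 35.4 and 35.6 FPKM, and a DEAD-box helicase (LOC_Os02g05330) at 91.3, 59.5 and 42.1 FPKM. The latter is listed for an interval that 51 entries share.

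Chaperones and folding enzymes were higher in 7 of 12 cases, lower in 4 and within 2-fold in 1. Here too the list came mostly from loci the study had called changed, so these counts give no direction. The shares among all named entries over the limit were 16.2% higher and 13.7% lower. The 2 DnaK (Hsp70-type) chaperones, which hold unfolded proteins, had opposite directions, LOC_Os03g02260 at 22.2, 95.0 and 114 FPKM and LOC_Os02g02410 at 259, 171 and 81.9 FPKM, so that the former was the lower one in control and the higher one after 3 d. The 3 DnaJ co-chaperones were 2.61-fold (LOC_Os12g07060), 2.33-fold (LOC_Os03g04400) and 2.02-fold (LOC_Os08g03380) higher, the last with a log2 ratio under 1 when a pseudocount of 1 was added (0.98) or ratios were centred (0.85). An activator of the Hsp90 ATPase (LOC_Os02g04650) was at 9.997, 23.8 and 34.3 FPKM. The cyclophilin CYP40 (LOC_Os06g11320), a prolyl isomerase that works with Hsp90, was at 29.8, 10.07 and 5.45 FPKM, 5.47-fold lower.

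The ubiquitin pathway, which marks proteins for breakdown, had 9 higher, 7 lower and 2 genes within 2-fold among 18, with a median log2 ratio of 0.18. Against this stand 16.2% higher and 13.7% lower among all named entries over the limit. Its genes came mostly from loci the study had called changed, so nothing is read from the difference. The highest single-locus ratio of the list was that of a C3HC4 zinc finger protein (LOC_Os06g01200) at 5.56, 13.1 and 22.2 FPKM. Its lowest was that of another C3HC4 protein (LOC_Os02g06920) at 46.6, 10.8 and 9.36 FPKM. The F-box protein OsFBL7 (LOC_Os02g10700) was the most abundant member in control and was at 243, 67.7 and 55.3 FPKM.

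Nearly all genes described so far were drawn from loci that the study had listed as changed in these same libraries, so the counts of each list are a description and no independent evidence of its direction. The 16 genes of known function, all higher, were chosen by the study for that direction. Besides those given above they comprise OsLti6b (LOC_Os05g04700), a small membrane protein of cold tolerance, at 196, 1163 and 980.3 FPKM, HOX1a (LOC_Os06g12400), a homeobox factor, at 11.6, 19.9 and 41.1 FPKM, and PTB1 (LOC_Os05g05280), a gene of pollen tube growth, at 19.4, 44.7 and 51.1 FPKM. AIP1 (LOC_Os01g03510), which binds actin, was at 21.2, 48.2 and 54.4 FPKM, ONAC131 (LOC_Os12g03040), a NAC factor of blast resistance, at 5.25, 10.8 and 13.6 FPKM, and nyc1 (LOC_Os01g12710), of chlorophyll breakdown, at 13.5, 20.1 and 31.3 FPKM.

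The predicted interaction partners in the network of the study were listed there without regard to their own change. Of 6 entries over the limit, 5 were within 2-fold and 1 was higher, with a median log2 ratio of 0.36. The share that was higher is near the 16.2% among all named entries over the limit. The higher entry holds the chromatin remodeller PICKLE (LOC_Os06g08480) and a further locus, at 64.5 FPKM in the watered control, 103 in WD2d and 153 in WD3d. The transcription factor Dp (LOC_Os03g05760), a partner of E2F, was at 9.21, 11.3 and 16.5 FPKM, and an NF-X1-type zinc finger protein (LOC_Os06g14190) at 15.0, 18.5 and 23.8 FPKM. Ribosomal protein L34 (LOC_Os08g06040) was at 81.2, 94.0 and 71.5 FPKM, a syntaxin (LOC_Os06g02570) at 5.42, 4.37 and 5.65 FPKM, and the entry with cyclin-dependent kinase A-1 (LOC_Os03g02680) at 8.01, 7.67 and 6.61 FPKM. A receptor-like kinase (LOC_Os01g02600) was under the limit in each group, at 0.12 FPKM in control and 0.0372 FPKM after 3 d.

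**Figure D3:**
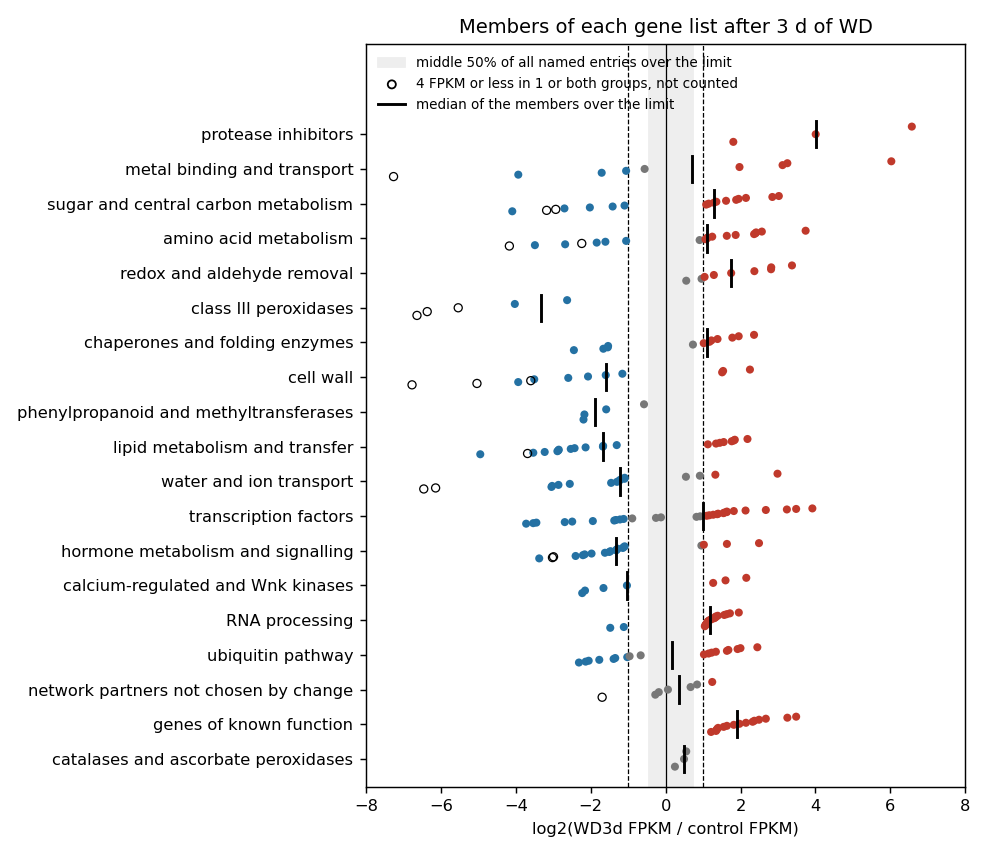
Log2 ratio of WD3d to control FPKM for each member of 19 gene lists, 1 point per entry, with a black bar at the median of the members over 4 FPKM in both groups and open circles for members at or under that limit. The grey band spans the middle 50% of all named entries over the limit in both groups. The dashed lines mark a log2 ratio of -1 and 1. Medians range from -3.33 for the class III peroxidases to 4.01 for the protease inhibitors.

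Over all lists, 234 entries were followed, of which 24 name more than 1 locus and 68 are listed for an interval that another entry shares, enolase and the peroxidase LOC_Os01g15830 among them. Of the 217 over the limit, 107 were higher, 87 lower and 23 within 2-fold after 3 d. With ratios centred, 87 were higher and 89 lower.

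Outside these lists, the highest and lowest ratios among annotated single-locus entries of the stretches added a few functions. A mitochondrial external NADH-ubiquinone oxidoreductase (LOC_Os08g04630), which feeds cytosolic electrons into respiration, was at 4.64 FPKM in the watered control, 47.6 in WD2d and 58.7 in WD3d, 12.7-fold higher. A protein kinase (LOC_Os06g08280) was at 6.68, 75.7 and 98.0 FPKM, and a transmembrane protein (LOC_Os01g08290) at 4.03, 53.8 and 83.4 FPKM. At the other end, a tubulin/FtsZ domain protein (LOC_Os02g07060), of the family that builds microtubules, was at 155, 29.7 and 12.4 FPKM, 12.6-fold lower. A serine carboxypeptidase (LOC_Os02g02320) was at 68.9, 12.8 and 5.37 FPKM, and the secY subunit of a protein translocase (LOC_Os08g15460) at 90.8, 7.76 and 5.76 FPKM.

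The most abundant named entries differed only in part between the groups. LOC_Os02g06640, LOC_Os02g02890 and S-adenosylmethionine synthetase (LOC_Os05g04510) were among the 10 most abundant both in control and after 3 d. Each set of most abundant entries was chosen by its level in 1 group, which favours a lower value in the other, so the levels are a description. Besides the metallothionein, OsGAPC3, OsLti6b and the glyoxalase, the 10 most abundant after 3 d included LOC_Os02g06640 at 1833 FPKM in the watered control, 2238 in WD2d and 4062 in WD3d, and LOC_Os02g02890 at 824, 1462 and 1436 FPKM, neither with a description in the tables used here. Besides S-adenosylmethionine synthetase, sucrose synthase and LTPL104, the 10 most abundant in control included a B12D protein (LOC_Os06g13680), of a small mitochondrial protein family, at 1486, 249 and 209 FPKM. This set, chosen after the values were seen, also included LOC_Os03g01700, an expressed protein of unknown function, at 921, 7.18 and 1.85 FPKM. The listed interval of LOC_Os03g01700 is shared by 2 entries.

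**Figure D4:**
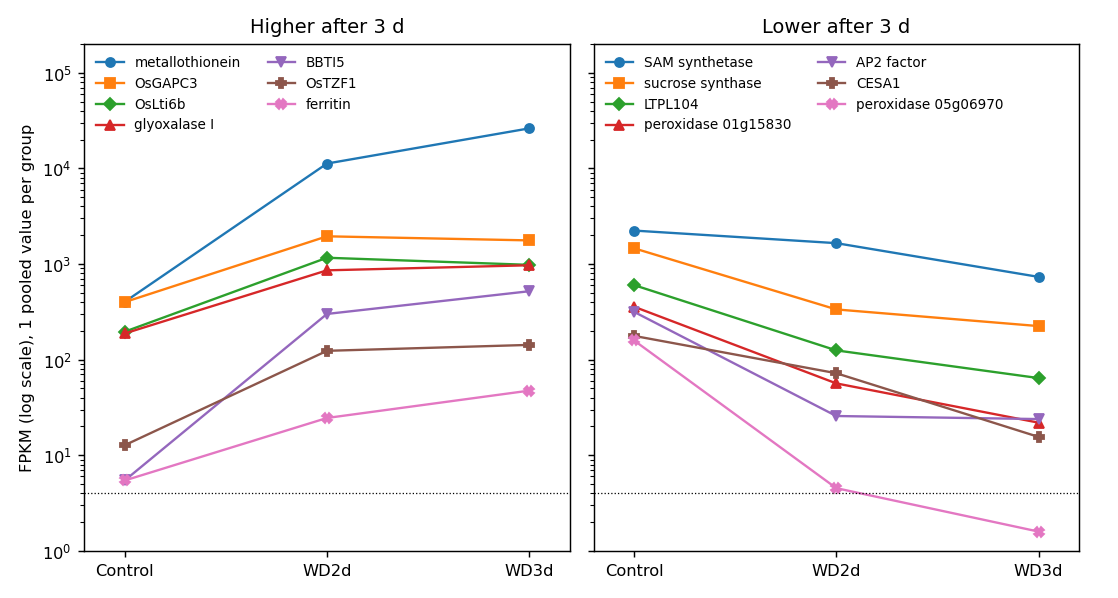
FPKM (log scale) in control, WD2d and WD3d for 7 genes that were higher and 7 that were lower after 3 d, 1 pooled value per group, with the dotted line at 4 FPKM. The metallothionein reached 26219.6 FPKM after 3 d, and the peroxidase LOC_Os05g06970 ended at 1.59 FPKM.

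The FPKM limit in control left out entries that were low without WD. In the stretches used for names, 165 entries naming 1 locus were at 4 FPKM or less in control and over 4 FPKM and 2-fold higher after 3 d, and 19 entries went from 4 FPKM or less to over 50 FPKM. The most abundant of them, named after their values were seen, carry no description in the tables used here. LOC_Os08g01370 was listed at 0 in control, at 788 FPKM after 2 d and at 1546 FPKM after 3 d. LOC_Os03g07180 was at 0.236, 732 and 747 FPKM, LOC_Os01g10400 at 2.80, 273 and 493 FPKM, and LOC_Os05g04870 at 0.0707, 448 and 449 FPKM. LOC_Os08g01370 and LOC_Os03g07180 are among the 10 most abundant entries of the stretches after 3 d. Each is listed for an interval that 2 entries share. That of LOC_Os08g01370 is also listed for LOC_Os08g01360, which was at 16.3, 38.6 and 41.2 FPKM. Conversely, 381 entries were over 4 FPKM in control and at 4 FPKM or less and 2-fold lower after 3 d, of which 24 had been over 50 FPKM.

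Most called entries were further from control after 3 d than after 2 d. Of the 314 entries higher after 3 d, 269 were higher after 3 d than after 2 d, with a median log2 ratio of WD3d to WD2d of 0.40, and 45 were lower after 3 d than after 2 d. Of the 266 entries lower after 3 d, 234 were lower after 3 d than after 2 d, with a median of -0.50. Entries were chosen by their WD3d value, which favours WD3d values far from control, so these counts describe the calls only. More than 2-fold differences between both days were fewer, in 19 of the higher and 53 of the lower entries. CESA1 and the BEL1-like factor were among them, whereas OsTZF1, OsGAPC3 and the AP2 factor LOC_Os03g08470 were close to their final level after 2 d.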

How the data were processed

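Per the labels and the study's methods, the authors checked paired-end Illumina TruSeq reads with FastQC, trimmed them with cutadapt and Trim Galore, mapped them with TopHat to IRGSP 1.0 and took gene features from the RGAP annotation. The sources used here give neither tool versions nor strand settings. The deposited values are FPKM, which the authors computed with Cuffdiff as 1 value per group and entry, pooled over 2 libraries. The table also holds their fold change, test statistic, p, q and call, none of which was used. 0 columns per library were used, so the precision of a value is unknown.

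Log2 ratios were computed from FPKM without a pseudocount, with limits of 4 FPKM in both groups and a log2 ratio of 1. The design allowed for limma or edgeR had values per library been given, and neither was run. Lists were built from loci that the study's tables annotate, and a locus with several entries was followed by its most abundant entry naming 1 locus. Named genes were up to 6 members per direction with the largest ratios and the most abundant member of each list, the 10 highest and 10 lowest ratios of annotated loci, the 10 most abundant entries at 3 d, and all members of the known-function, network and primer lists. The text prints some of them, and a few genes named outside this rule as examples, chosen after their values were seen. Members and lists were chosen with earlier results of these data known. Gene functions come from the study's annotation, and coordinates are those of the authors' table. The reference gene list of another assembly matched no locus name and was not used. Alternatives were other FPKM limits, pseudocounts, centring, a log2 limit of 2, 1 entry per locus and status. As a check of the code only, 4-fold differences were planted in the control values and were recovered. No spread between libraries was simulated, so the reliability of a call was not tested. Python 3.11.15, pandas 2.3.3 and numpy 2.4.6 were used.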

Additional observations from a re-analysis of the deposited data

How the results depend on the processing

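The counts depended on both the log2 limit and the FPKM limit. Over all entries, 3245 were higher and 4193 lower after 3 d when FPKM over 4 was required in only 1 group, 1058 and 745 when both groups had to exceed 10 FPKM, 6179 and 8251 without any limit beyond a value above 0 in both, and 407 and 446 with a log2 limit of 2. In the stretches used for names, the counts were 481 and 660, 211 and 139, 811 and 1247, and 68 and 81 in the same order. Among the entries of the gene lists, 52 were lower when both groups had to exceed 10 FPKM, and 30 were higher and 42 lower with a log2 limit of 2. The other settings, which were pseudocounts of 1 and 0.1, centring, 1 entry per locus and rows of status OK, moved each of these counts by less than 1.5 times. Among the 230 single genes and entries over the limit, 3 crossed the log2 limit of 1 with a pseudocount of 1, and centring moved 24 across it. No paired analysis was possible because the values are pooled over the libraries of a group and carry no replicate number, and leaving out a library was not possible for the same reason. Depth per library is unknown, so no limit of detection is given for entries listed near 0.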
